A study of Homo sapiens with 8 samples.

Results

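The transcripts of the EGF-family ligands of the ERBB receptors were measured in HER2+ breast cancer cells treated with a HER2 inhibitor, a BET bromodomain inhibitor, or both. The family was taken by gene symbol as EGF, TGFA, AREG, EREG, BTC, HBEGF, NRG1, NRG2, NRG3 and NRG4, which are 10 of the 20531 genes listed. Poly(A) RNA was sequenced from SKBR-3, a human HER2+ breast cancer line without estrogen and progesterone receptors, and from BT474m1, a HER2+ line labelled positive for both. Each line received DMSO, the vehicle of the controls, 300 nM of lapatinib, a kinase inhibitor of EGFR and HER2, 300 nM of JQ1, a BET bromodomain inhibitor, or both drugs at these doses. The labels give a treatment of 48 h. Each of the 8 groups held 1 library, so no difference within a line could be set against a spread between replicate cultures, and no p-value is given for a single line. Each line is a single established culture model with amplified HER2.

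EGF-family ligands are made as proteins anchored in the plasma membrane, from which metalloproteases of the ADAM family release an active domain. EGF, TGFA (transforming growth factor alpha) and AREG (amphiregulin) bind EGFR. BTC (betacellulin), HBEGF (heparin-binding EGF-like growth factor) and EREG (epiregulin) bind EGFR and ERBB4. The neuregulins NRG1 and NRG2 bind ERBB3 and ERBB4, and NRG3 and NRG4 bind ERBB4. HER2, encoded by ERBB2, has no known ligand of its own and is the preferred partner of the receptors that have bound one.

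The leading ligand differed between the lines, and the summed ligand signal was higher with lapatinib than with DMSO in both. EGF supplied most of the ligand reads in SKBR-3 and TGFA most of those in BT474m1. With lapatinib, EGF and BTC were more than 2-fold higher in SKBR-3, AREG was more than 2-fold higher in BT474m1, and TGFA was 1.88-fold higher in BT474m1. When JQ1 was added to lapatinib, EGF, AREG and BTC were more than 2-fold lower than with lapatinib alone in both lines, as was TGFA in BT474m1. HBEGF ran the other way, with its lowest value of all under lapatinib in SKBR-3 and its highest value in each line in a library with JQ1.

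The sequences before the start sites of EGF, BTC and AREG are shown because these 3 genes were the ones at least 2-fold higher with lapatinib in either line. They are RefSeq sequences of GRCh38.p14, each the 250 bases before the annotated start of transcription, read 5′ to 3′ on the strand of the gene. The EGF sequence lies at chr4:109912633-109912882 on the plus strand, the AREG sequence at chr4:74444886-74445135 on the plus strand and the BTC sequence at chr4:74794524-74794773 on the minus strand. Capitals mark exact matches to the motifs that were searched.
EGF: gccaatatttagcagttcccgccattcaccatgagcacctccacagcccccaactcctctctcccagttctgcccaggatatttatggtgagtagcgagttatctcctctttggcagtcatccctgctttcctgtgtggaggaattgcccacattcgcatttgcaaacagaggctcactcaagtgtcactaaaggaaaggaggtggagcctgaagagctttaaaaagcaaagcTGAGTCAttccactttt
AREG: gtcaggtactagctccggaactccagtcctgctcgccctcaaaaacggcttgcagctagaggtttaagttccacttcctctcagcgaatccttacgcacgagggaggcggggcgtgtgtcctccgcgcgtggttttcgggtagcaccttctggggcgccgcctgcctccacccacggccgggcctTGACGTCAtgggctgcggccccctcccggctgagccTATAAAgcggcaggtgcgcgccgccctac
BTC: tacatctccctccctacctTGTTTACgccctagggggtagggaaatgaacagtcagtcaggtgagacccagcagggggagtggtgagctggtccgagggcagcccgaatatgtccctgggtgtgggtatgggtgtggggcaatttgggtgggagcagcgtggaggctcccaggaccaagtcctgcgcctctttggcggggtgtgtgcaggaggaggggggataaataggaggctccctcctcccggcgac
Position -1 is the last base before the start. In EGF the capitals, from position -17 to -11, are the AP-1 motif TGACTCA on the opposite strand. In AREG they are the cAMP response element TGACGTCA from position -65 to -58 and the TATA box TATAAA from -29 to -24. In BTC they are the FOX motif GTAAACA on the opposite strand, from position -231 to -225. The promoter table held 12 sequences of 9 of the 10 genes. Among the 35116 promoter windows of the same length in that table, 4.20% held the AP-1 motif on either strand, 1.65% the cAMP response element and 4.84% the FOX motif, which was searched as GTAAACA or GTCAACA. The TATA box, searched on the forward strand only, was held by 6.80% of all windows and by those of AREG, EREG and NRG4. The E-box CACGTG was in 6.34% of all windows and the full palindromic estrogen response element in 0.0399%, and none of the ligand windows held either. These are matches of letters in a short window and not sites of binding.

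Values are given as normalised read counts. The authors set the upper quartile of all genes with reads to 1000 in each library, so every ligand stood below the upper quartile of the expressed genes. From the steps between values, 1 read was worth 0.471 to 0.766 units, and the libraries held 21420115 to 34112381 reads on genes. All values of the ligands above 0 were whole numbers of reads. The 95% intervals given with the folds come from these reads and cover counting error only. The floor was set at 3 reads, or 1.41 to 2.30 units. A gene was counted as changed where log2(value + 1) differed by at least 1, which is 2-fold, among the 14429 genes that reached a value of 10 in any library. This scale understates the change of low genes, and folds in the text are ratios of the values. The filter was passed by 8 of the 10 ligands, and NRG1 and NRG4 did not pass it. Luminal markers checked the labels: KRT8, KRT18, KRT19 and EPCAM exceeded 100 in all libraries, and CDH1, the gene of E-cadherin, did so in BT474m1 only, so that SKBR-3 had 4 of the 5 markers. Of the markers of other cell types, 1 of 4 fibroblast genes (COL1A1) in BT474m1 and 1 of 4 leukocyte genes (CD68) in SKBR-3 exceeded 100 in all 4 libraries of the line. The fibroblast list summed to 341 to 1262 in BT474m1 and the leukocyte list to 192 to 416 in SKBR-3, with PTPRC, the pan-leukocyte gene, at 1 read or fewer there. Some of these markers differed between treatments. The luminal list in SKBR-3 summed to 161476 with DMSO, 147690 with lapatinib, 507031 under JQ1 and 294588 with both drugs, mostly from KRT8 (59145 with DMSO and 211202 with JQ1) and KRT19 (70271 and 194265), and in BT474m1 it summed to 83428 to 121175. CD68 was 178 with DMSO and 407 with lapatinib in SKBR-3, and COL1A1 was 1253 with DMSO and 394 with JQ1 in BT474m1. Of the 3 endothelial markers, PECAM1 had 1 read or fewer in all libraries, and the list summed to 149 with DMSO and to 21.9 to 95.7 with drugs in SKBR-3, and to 189 with DMSO and at most 30.7 with drugs in BT474m1. The basal or myoepithelial list stayed at or below 39.7. The part of these transcripts in the ligand results was not tested. As in any bulk RNA, fewer cells with a transcript and less of it per cell cannot be told apart.

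**Figure D1:**
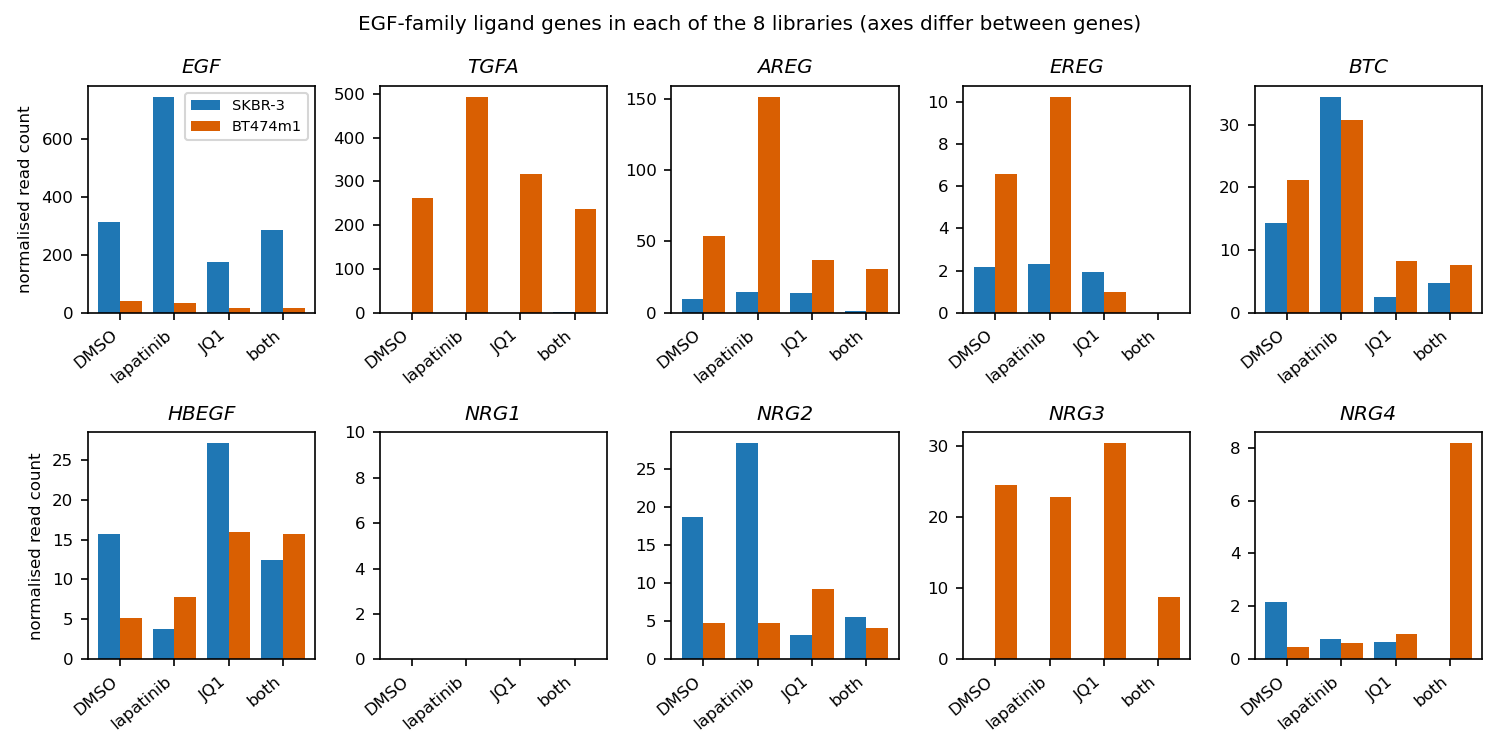
Normalised read counts of the 10 ligand genes in each of the 8 libraries, 1 panel per gene with an axis of its own that starts at 0. Blue bars are SKBR-3 and orange bars BT474m1. EGF stands highest in SKBR-3 with lapatinib at 744, TGFA is near 0 in all SKBR-3 bars, and NRG1 has no bar.

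EGF, the founding member of the family, was the most abundant ligand transcript in SKBR-3. Its value there was 311 with DMSO (435 reads), 744 with lapatinib (972 reads), 176 with JQ1 (273 reads) and 287 with both drugs (417 reads). The lapatinib library was thus the highest and the JQ1 library the lowest, and adding JQ1 to lapatinib gave a value close to that of DMSO. The lapatinib value was 2.39-fold that of DMSO (95% counting interval 2.13 to 2.68). With JQ1 alone EGF was 1.77-fold lower than with DMSO (1.52 to 2.07), and the library with both drugs was 2.59-fold lower than with lapatinib (2.31 to 2.92). The interval of the comparison of both drugs with DMSO, 0.947 to 1.24 for a value 1.09-fold lower, included no change.

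In BT474m1 EGF was far lower, at 39.1 with DMSO (83 reads), 34.3 with lapatinib (57 reads), 15.9 with JQ1 (33 reads) and 15.2 with both drugs (26 reads). Here the libraries fell into a higher pair without JQ1 and a lower pair with it. Lapatinib gave a value 1.14-fold lower than DMSO (0.804 to 1.63), an interval that includes no change. JQ1 gave a value 2.45-fold lower than DMSO (1.62 to 3.79), and both drugs gave one 2.26-fold lower than lapatinib (1.40 to 3.75). EGF was 7.96-fold lower in BT474m1 than in SKBR-3 in the DMSO libraries (6.28 to 10.2) and 21.7-fold lower in the lapatinib libraries (16.6 to 28.8).

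TGFA, a second ligand that binds EGFR alone, was found in 1 line. In SKBR-3 it had 0 reads with DMSO and with lapatinib, 1 read under JQ1 and 1 read with both drugs, all under the floor. In BT474m1 its value was 263 with DMSO (558 reads), 493 with lapatinib (819 reads), 318 with JQ1 (658 reads) and 238 with both drugs (408 reads). Lapatinib gave the highest value and both drugs the lowest. With DMSO the value in BT474m1 was at least 122.5-fold that of SKBR-3, as computed against the floor of the SKBR-3 library.

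The lapatinib value of TGFA in BT474m1 was 1.88-fold that of DMSO (1.68 to 2.09), short of the 2-fold rule. JQ1 alone gave a value 1.21-fold higher than DMSO (1.08 to 1.35). With both drugs TGFA was 2.07-fold lower than with lapatinib (1.84 to 2.34) and 1.11-fold lower than with DMSO (0.972 to 1.26). So TGFA lay slightly above DMSO with JQ1 alone, while the library with JQ1 and lapatinib lay below that with lapatinib.

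AREG, a ligand of EGFR that estrogen is known to induce in breast epithelium, had its highest value in BT474m1 with lapatinib. In BT474m1 it stood at 53.7 with DMSO (114 reads), 151 with lapatinib (251 reads), 37.2 with JQ1 (77 reads) and 30.3 with both drugs (52 reads). Both libraries with JQ1 were below DMSO. The lapatinib value was 2.81-fold that of DMSO (2.25 to 3.54), JQ1 gave a value 1.44-fold lower than DMSO (1.07 to 1.96), and both drugs gave one 4.99-fold lower than lapatinib (3.69 to 6.86). A near-identical gene copy in some annotations, AREGB, has no value here, and whether reads were shared between the pair is not known.

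In SKBR-3 AREG rested on few reads: 13 with DMSO (value 9.31), 19 with lapatinib (14.5), 21 under JQ1 (13.5) and 2 with both drugs (1.38). The first 3 libraries were close, and the library with both drugs stood below the floor. Against lapatinib that library was 10.6-fold lower, with an interval from 2.55 to 93.6. The interval of lapatinib against DMSO, 0.732 to 3.44, included no change. Between the DMSO libraries, AREG in BT474m1 was 5.78-fold above SKBR-3 (3.25 to 11.2).

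BTC, a ligand of EGFR and ERBB4, was lower with JQ1 in both lines. In SKBR-3 its value was 14.3 with DMSO (20 reads), 34.5 with lapatinib (45 reads), 2.58 with JQ1 (4 reads) and 4.82 with both drugs (7 reads). In BT474m1 the values were 21.2, 30.7, 8.21 and 7.58 in the same order, on 45, 51, 17 and 13 reads. The order was therefore alike in both lines, with lapatinib highest, DMSO next and the libraries with JQ1 lowest.

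Lapatinib gave a BTC value 2.41-fold that of DMSO in SKBR-3 (1.39 to 4.30) and 1.45-fold that of DMSO in BT474m1 (0.951 to 2.21). JQ1 alone gave a value 5.55-fold lower than DMSO in SKBR-3 (1.86 to 22.3) and 2.58-fold lower in BT474m1 (1.45 to 4.81). With both drugs BTC was 7.16-fold lower than with lapatinib in SKBR-3 (3.20 to 18.8) and 4.05-fold lower in BT474m1 (2.17 to 8.12). BTC was at least 2-fold lower in every comparison of a library with JQ1 against its partner without it. Between the lines with DMSO the fold was 1.48 (0.857 to 2.65), so a difference was not detectable at this depth.

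HBEGF, which binds EGFR and ERBB4 and is an early-response gene of growth factor signalling, had a different order. In SKBR-3 its value was 15.7 with DMSO (22 reads), 3.83 with lapatinib (5 reads), 27.1 with JQ1 (42 reads) and 12.4 with both drugs (18 reads). In BT474m1 it was 5.19 with DMSO (11 reads), 7.83 with lapatinib (13 reads), 15.9 with JQ1 (33 reads) and 15.7 with both drugs (27 reads). Lapatinib gave the lowest value in SKBR-3 but not in BT474m1. JQ1 alone gave the highest value in SKBR-3, and the 2 libraries with JQ1 were alike and highest in BT474m1.

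In SKBR-3 the lapatinib value of HBEGF was 4.11-fold lower than that of DMSO (1.52 to 13.9), and both drugs gave a value 3.23-fold that of lapatinib (1.16 to 11.1). The JQ1 value there was 1.72-fold that of DMSO (1.0 to 3.02), short of the 2-fold rule. In BT474m1 lapatinib gave 1.51-fold the value of DMSO (0.624 to 3.72), JQ1 gave 3.07-fold (1.52 to 6.74) and both drugs gave 3.04-fold (1.46 to 6.78). HBEGF was the only ligand of the 8 that was higher, by at least 2-fold, in any library with JQ1 than in its DMSO library.

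EREG, the third ligand of EGFR and ERBB4, was near the floor. SKBR-3 held 3, 3 and 3 reads with DMSO, lapatinib and JQ1 and 0 with both drugs, so no fold is given there. BT474m1 held 14 reads with DMSO (value 6.60), 17 with lapatinib (10.2), 2 under JQ1 (0.966) and 0 with both drugs. The 2 libraries of that line without JQ1 were above the floor and the 2 with it were below. JQ1 gave a value 6.83-fold lower than DMSO (1.57 to 61.9), and both drugs gave one at least 5.85-fold lower than lapatinib.

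Of the neuregulins, NRG1, whose product activates HER3 with HER2 as partner, was listed at 0 in all 8 libraries. NRG2 had 26, 37, 5 and 8 reads in SKBR-3 with DMSO, lapatinib, JQ1 and both drugs (values 18.6, 28.3, 3.22 and 5.50), and 10, 8, 19 and 7 reads in BT474m1 (4.71, 4.82, 9.18 and 4.08). In SKBR-3 the libraries with JQ1 were the lower pair, as for BTC, whereas in BT474m1 the JQ1 library was the highest. JQ1 gave a value 5.78-fold lower than DMSO in SKBR-3 (2.18 to 19.3) and 1.95-fold higher in BT474m1 (0.861 to 4.69). With both drugs NRG2 was 5.15-fold lower than with lapatinib in SKBR-3 (2.36 to 12.8).

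NRG3, a ligand of ERBB4 best known from the nervous system, was listed at 0 in all 4 SKBR-3 libraries. In BT474m1 its value was 24.5 with DMSO (52 reads), 22.9 with lapatinib (38 reads), 30.4 with JQ1 (63 reads) and 8.75 with both drugs (15 reads). Only the library with both drugs stood apart, 2.80-fold lower than DMSO (1.55 to 5.36), 2.62-fold lower than lapatinib (1.41 to 5.12) and 3.48-fold lower than JQ1 (1.96 to 6.58). The DMSO value of BT474m1 was at least 11.4-fold that of SKBR-3.

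NRG4, another ligand of ERBB4, had 3 reads or fewer in 7 libraries and 14 reads (value 8.16) in BT474m1 with both drugs, and this value did not pass the filter. It was 17.3-fold that of DMSO, which held 1 read, with an interval from 2.63 to 732. Exons of NRG2, NRG3 and NRG4 overlap a gene on the opposite strand in GENCODE, which for NRG4 is FBXO22 and for NRG3 is NRG3-AS1. The labels name 2 kits, of which 1 is stranded, so that reads of the 2 strands may not have been told apart for these 3 genes, and their values are uncertain. No such overlap was annotated for EGF, TGFA, AREG, EREG, BTC or HBEGF. EPGN, a further EGF-like ligand that lies beside EREG, AREG and BTC on chromosome 4, had 9, 5, 13 and 5 reads in SKBR-3 and 1 or fewer in BT474m1.

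**Figure D2:**
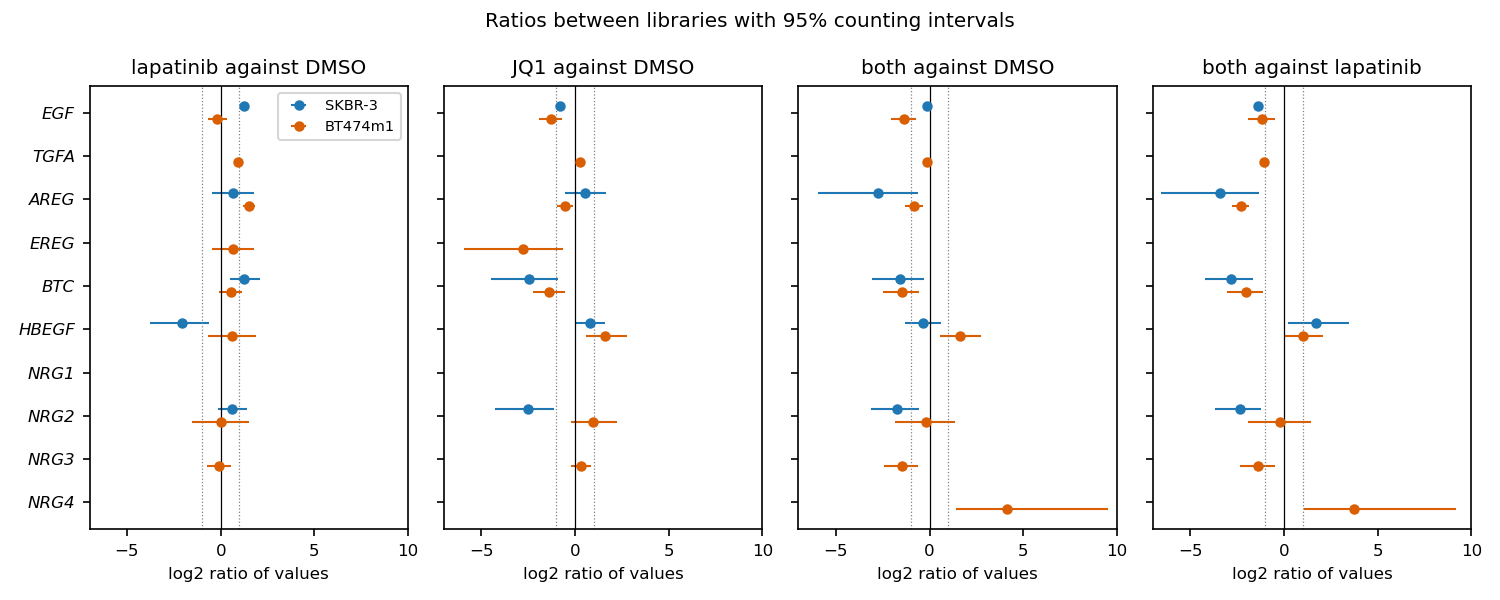
Log2 ratio of the values of 2 libraries for each ligand gene, with 95% counting intervals as horizontal bars, for SKBR-3 (blue) and BT474m1 (orange). Dotted lines mark 2-fold. Ratios with 0 reads in 1 library, or with both at or under 3 reads, are not drawn. In the panel of both drugs against lapatinib, the points of EGF, AREG and BTC lie left of 0 in both lines and those of HBEGF lie right of it.

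With lapatinib against DMSO, 2 of the 8 ligands that passed the filter were called higher in SKBR-3 (EGF and BTC), against 11.1% of all 14429 genes, and 1 was called lower (HBEGF), against 9.44%. In BT474m1, 1 was called higher (AREG), against 14% of all genes, and 0 lower, against 8.06%. Counts of 1 or 2 genes describe those genes and not the family. In SKBR-3 only 5 of the 8 had more than 3 reads in either library (EGF, AREG, BTC, HBEGF and NRG2), since TGFA, EREG and NRG3 passed the filter through BT474m1. The median log2 fold change of these 5 was 0.59, in a range from -1.79 to 1.25, beside 0.07 over the 13462 genes above the floor. In BT474m1 all 8 were above it, with a median of 0.51 and a range from -0.18 to 1.48, beside 0.08 over 14127 genes.

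With JQ1 against DMSO, 0 ligands were called higher in SKBR-3, where 3.75% of all genes were, and 2 were called lower (BTC and NRG2), where 11.8% of all genes were. In BT474m1, 1 was called higher (HBEGF), against 4.81% of all genes, and 3 lower (EGF, EREG and BTC), against 11.8%. The median of the 5 ligands above the floor in SKBR-3 was -0.82, in a range from -2.22 to 0.74, beside -0.10 over all genes above it. The median of the 8 in BT474m1 was -0.12, in a range from -1.95 to 1.45, beside -0.06. The ligands thus ran both ways in each line, and BTC was called lower in both.

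With both drugs against DMSO, 0 of the 8 were called higher in SKBR-3 (10.8% of all genes) and 4 were called lower (20.8%). The 4 were AREG, EREG, BTC and NRG2, of which EREG went from 3 reads to 0. In BT474m1, 1 was called higher (HBEGF, against 14.2% of all genes) and 4 lower (EGF, EREG, BTC and NRG3, against 15.3%). Without the filter 2 were called higher there, HBEGF and NRG4, and 4 lower. The median of the 5 ligands above the floor in SKBR-3 was -1.40 and that of the 8 in BT474m1 -1.06, beside -0.12 and 0.01 over all genes above the floor.

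The comparison of both drugs with lapatinib alone asks how cells given JQ1 together with lapatinib differed from cells given lapatinib. Of the 8 ligands, 5 were called lower in SKBR-3 (EGF, AREG, EREG, BTC and NRG2), where 16.2% of all genes were, and 1 higher (HBEGF), where 3.22% were. In BT474m1, 6 were called lower (EGF, TGFA, AREG, EREG, BTC and NRG3), where 12.5% of all genes were, and 0 higher, where 5.2% were. EREG reached a value of 10 only in the BT474m1 lapatinib library, the higher side of this comparison. NRG4, which the filter took out, had 1 read with lapatinib and 14 with both drugs in that line. Without the filter 6 were called lower and 1 higher there. EREG in SKBR-3 went from 3 reads to 0 and rests on the floor. The intervals of the other 5 calls in SKBR-3 and of all 6 in BT474m1 excluded no change. The median log2 fold change was -2.17 over the 5 ligands above the floor in SKBR-3 and -1.21 over the 8 in BT474m1, beside -0.14 and -0.02 over all genes above the floor.

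The counts above describe each line alone. With the 2 lines taken as replicates of each treatment (limma, line as a block, 3 residual degrees of freedom), 0 of the 8 ligands passed an adjusted p of 0.05 in any of the 4 drug comparisons. TGFA, EREG and NRG3 had 3 reads or fewer in every SKBR-3 library, so their means over the lines do not measure a response shared by both. For TGFA with both drugs against lapatinib the mean log2 fold change was -0.15, beside -1.05 in BT474m1 alone. Of all genes, 4.65% passed with lapatinib, 0.0554% with JQ1, 18.4% with both drugs against DMSO and 0.249% with both drugs against lapatinib. At an unadjusted p under 0.05 there were 0, 1 (BTC), 2 (EREG and BTC) and 4 ligands (EGF, AREG, EREG and BTC) in the same order, beside 23.3%, 15.3%, 35.1% and 17.3% of all genes. In the last of these the mean log2 fold change over the lines was -2.25 for BTC (SE 0.581, limma adjusted p = 0.132) and -2.50 for AREG (SE 0.654, limma adjusted p = 0.135), each lower in 2 of 2 lines. The spread in this fit also holds any difference between the lines in their response.

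Between the lines with DMSO, 4 ligands were called higher in BT474m1 (TGFA, AREG, EREG and NRG3), against 26.8% of all genes, and 3 lower (EGF, HBEGF and NRG2), against 15.6%. BTC alone of the 8 was within 2-fold. TGFA, EREG and NRG3 passed the filter only through BT474m1 libraries, and NRG2 only through SKBR-3 libraries. Each of them was thus kept through the line in which it was called higher. The filter, which asks for a high value in any library, favours such calls, for the ligands and for all genes alike. The interval of EREG, 0.858 to 16.7 for a value 3.07-fold higher, included no change.

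Because each line had a dominant ligand, the summed signal followed 1 or a few genes. The summed value of the 10 ligands in SKBR-3 was 374 with DMSO, 828 with lapatinib, 226 under JQ1 and 312 with both drugs. The sums in BT474m1 were 419, 756, 437 and 328 in the same order. Lapatinib gave the highest sum in each line. With DMSO the sum in BT474m1 was 1.12-fold that in SKBR-3 (an interval up to 1.25 that excluded no change), and per kilobase of transcript it was 133 against 74.2, or 1.79-fold.

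With lapatinib the sum was 2.22-fold that of DMSO in SKBR-3 (2.0 to 2.47) and 1.81-fold in BT474m1 (1.66 to 1.97). EGF made up 95.2% of the difference in SKBR-3, whereas TGFA made up 68.3% and AREG 28.9% of that in BT474m1. With both drugs the sum was 2.66-fold lower than with lapatinib in SKBR-3 (2.38 to 2.97) and 2.31-fold lower in BT474m1 (2.09 to 2.55), which put it below DMSO in both lines. JQ1 alone gave a sum 1.66-fold lower than DMSO in SKBR-3 (1.44 to 1.90) and one 1.04-fold higher in BT474m1 (0.95 to 1.15).

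EGF took 83.3% of the ligand reads in SKBR-3 with DMSO (exact Clopper-Pearson 95% interval 79.9% to 86.4%), 89.8% with lapatinib (87.9% to 91.6%), 78% with JQ1 (73.3% to 82.2%) and 92.1% with both drugs (89.2% to 94.4%). In BT474m1 it took between 3.65% and 9.35%. TGFA took 62.8% of the reads in BT474m1 with DMSO (59.6% to 66.0%), 65.3% with lapatinib (62.6% to 67.9%), 72.8% with JQ1 (69.8% to 75.7%) and 72.6% with both drugs (68.7% to 76.2%). The second ligand of that line, AREG, went from 12.8% with DMSO (10.7% to 15.2%) to 20% with lapatinib (17.8% to 22.3%) and 8.52% with JQ1 (6.78% to 10.5%). The 3 ligands of EGFR alone together took 84.3% to 92.7% of the ligand reads in all 8 libraries, although the gene that led them differed.

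**Figure D3:**
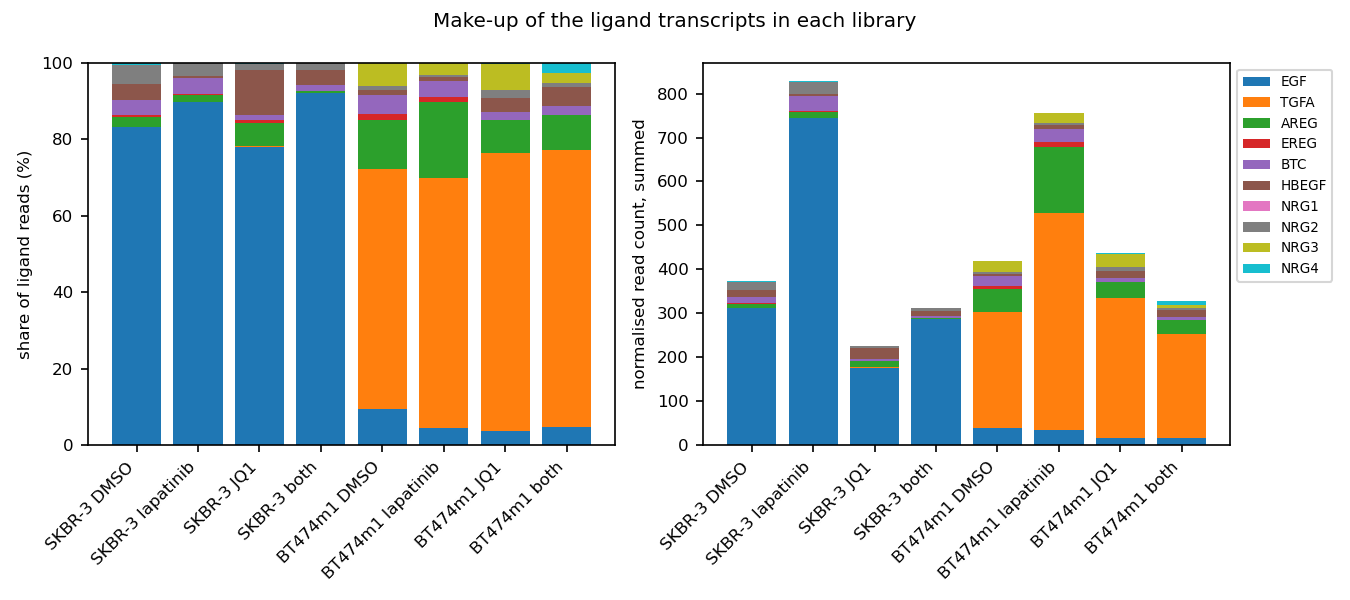
Share of the ligand reads taken by each gene (left, in percent) and summed normalised read counts (right) in each library. EGF fills most of the SKBR-3 bars and TGFA most of the BT474m1 bars, and the right panel is highest with lapatinib in each line, at 828 and 756.

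Reads also reflect transcript length, so levels of different ligands were compared as the value per kilobase of the transcript. EGF was highest in all 4 SKBR-3 libraries, at 48.7 per kb with DMSO, 117 with lapatinib, 27.5 under JQ1 and 44.9 with the combination. With DMSO it was followed in SKBR-3 by AREG at 7.54, HBEGF at 6.68, BTC at 5.40 and NRG2 at 4.75 per kb, neighbours whose counting intervals overlapped. In BT474m1 with DMSO, TGFA stood at 63.9 per kb and AREG at 43.6, with intervals apart, followed by BTC at 8.00, NRG3 at 6.43 and EGF at 6.13, which overlapped.

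With lapatinib AREG reached the level of TGFA in BT474m1, at 122.5 per kb (107.8 to 138.7) against 119.8 per kb (111.8 to 128.3). The order of the pair was the other way round with the union of all exons as the length. With JQ1 and with both drugs TGFA led again, at 77.2 and 57.8 per kb, against 30.1 and 24.6 for AREG. Per kb the ligand sum was 2.03-fold higher with lapatinib than with DMSO in SKBR-3 and 2.05-fold higher in BT474m1, so the sums changed by like amounts in the 2 lines on this scale.

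For ligands with reads above the floor in all 4 libraries of a line, the change with both drugs was set beside the sum of the changes with each drug alone on the log2(value + 1) scale. These changes share their DMSO library. For AREG in BT474m1 the change with both drugs was -0.81 and the sum of the single changes 0.96, a difference of -1.76 (95% interval from the Poisson errors of the 4 counts, -2.36 to -1.16). The same difference was -1.32 for TGFA (-1.56 to -1.08) and -1.59 for NRG3 (-2.61 to -0.58) in BT474m1, and -0.55 for EGF in SKBR-3 (-0.83 to -0.28). In these 4 cases both drugs together gave a lower value than the single changes add up to. The intervals of the other 7 pairs of ligand and line included 0, BTC in both lines among them.

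The receptors of these ligands were all detected. EGFR had values of 2769, 3370, 2758 and 3624 in SKBR-3 with DMSO, lapatinib, JQ1 and both drugs, and of 1632, 2638, 1943 and 2941 in BT474m1. ERBB2 had 112656, 277859, 154570 and 277872 in SKBR-3 and 95962, 118705, 94678 and 104594 in BT474m1, and its exons and those of EGFR overlap genes on the opposite strand. The 2 SKBR-3 libraries with lapatinib were the highest for ERBB2. ERBB3, which partners HER2, had 3623, 9897, 3272 and 7619 in SKBR-3 and 5557, 12375, 4112 and 8897 in BT474m1. ERBB4 had 27.9, 62.0, 12.2 and 48.2 in SKBR-3 and 229, 317, 183 and 205 in BT474m1. Of the 4 receptors, 3 were called higher with lapatinib in SKBR-3 (ERBB2, ERBB3 and ERBB4), where 11.1% of all genes were, and 1 in BT474m1 (ERBB3), where 14% were. With both drugs against lapatinib, 0 of the 4 were called in either line, where 3.22% of all genes were called higher and 16.2% lower in SKBR-3, and 5.2% and 12.5% in BT474m1. EGFR in SKBR-3 with DMSO stood at 280 per kb against 48.7 for EGF, and the ERBB2 level of 24722 per kb was far above both.

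Genes that release or carry the ligands were examined next. Of 14 genes of shedding and trafficking, 12 passed the filter. With lapatinib, 2 were called higher and 0 lower in SKBR-3 (BACE1, log2 fold change 1.23, and RHBDF1, 1.01, which encodes an inactive rhomboid that escorts ADAM17). In BT474m1, 1 was called higher (ADAM8, 1.56) and 1 lower (ADAM19, -1.24). ADAM19 had 18 reads with DMSO and 5 with lapatinib in that line, and it passed the filter only through SKBR-3. Over all genes 11.1% were called higher and 9.44% lower in SKBR-3, and 14% higher and 8.06% lower in BT474m1, so these counts are near the shares of all genes. With both drugs against lapatinib, 0 of the 12 were called in SKBR-3, where 3.22% of all genes were called higher and 16.2% lower. In BT474m1, 1 was called (RHBDL2, higher), where 5.2% of all genes were called higher and 12.5% lower. RHBDL2 had 2 reads with lapatinib and 6 with both drugs there, so the call rests on the floor, and it passed the filter only through SKBR-3. Of 8 negative regulators of the receptors, 1 was called higher with lapatinib in SKBR-3 (CBLB, an E3 ligase, 1.22) and 0 in BT474m1, where 11.1% and 14% of all genes were. With JQ1, 2 of the 8 were called higher in SKBR-3 (ERRFI1, an inhibitor of the receptor kinases, 1.71, and CBLB, 1.01) and 0 in BT474m1, where 3.75% and 4.81% of all genes were.

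The MAPK output genes, which follow ERK activity, were mostly lower with lapatinib in BT474m1. Of the 11 of 12 that passed the filter, 5 were called lower and 0 higher with lapatinib in SKBR-3 (9.44% and 11.1% of all genes), and 8 lower and 1 higher in BT474m1 (8.06% and 14%). Among the 5 in SKBR-3, ETV5 went from 2 reads to 0 and rests on the floor. The median log2 fold changes of this list were -0.98 and -2.37. With JQ1 alone 7 of the 11 were called higher in SKBR-3 and 0 lower (3.75% and 11.8% of all genes), whereas in BT474m1 0 were called higher and 1 lower (4.81% and 11.8%). HBEGF in SKBR-3, itself a gene that growth factor signalling induces, was lower with lapatinib and higher with JQ1, as the medians of this list were (-0.98 and 1.20). In BT474m1 the 2 did not run together. The list had a median of -0.20 under JQ1 and -2.39 with both drugs, where the log2 fold changes of HBEGF were 1.45 and 1.44, and 0.51 with lapatinib, whose interval included no change.

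The estrogen receptor and its targets, a list of 6 genes, were set beside AREG in BT474m1. ESR1, the receptor, had 840 with DMSO, 1827 with lapatinib, 190 under JQ1 and 249 with both drugs. PGR, the progesterone receptor, had 858, 12466, 251 and 290, and GREB1 had 1676, 10943, 380 and 758 in the same order. Of the 6 genes, 5 were called higher with lapatinib (14% of all genes), 5 lower under JQ1 (11.8%) and 6 lower with both drugs against lapatinib (12.5%). Their median log2 fold change was 2.45 with lapatinib against DMSO and -3.36 with both drugs against lapatinib. AREG too was highest with lapatinib and below DMSO in both libraries with JQ1, where PDZK1 was above DMSO. With JQ1 alone the log2 fold change of AREG was -0.52, which was not called, beside a median of -1.96 for the list.

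**Figure D4:**
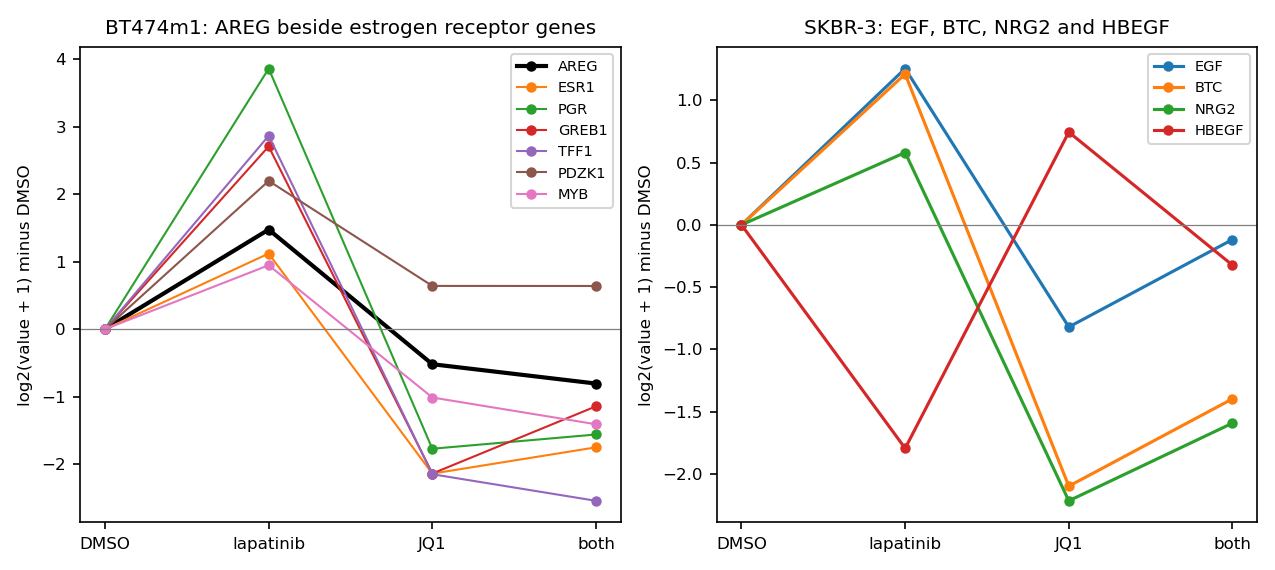
Change in log2(value + 1) from the DMSO library, in BT474m1 for AREG (black) and the 6 genes of the estrogen receptor list (left), and in SKBR-3 for 4 ligands (right). Lines join the 4 libraries of a cell line and are no time course. AREG stands at 1.48 with lapatinib and at -0.81 with both drugs, while in the right panel EGF, BTC and NRG2 lie above 0 with lapatinib where HBEGF lies at -1.79.

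For the 3 ligands that reached 100 in any library, the genes of most similar pattern were sought by Pearson's r of log2(value + 1) over the 8 libraries among 11757 genes. These 8 points fall into the 2 lines, which dominate such values, so r is a description only. For EGF the most similar were GLDN (r = 0.993), SDF4 (0.992) and OSBPL5 (0.992), and GLDN had 65.9, 158, 32.9 and 79.8 in SKBR-3 and 1.17 to 7.83 in BT474m1. For TGFA they were CCNT2 (0.999), PPP1R12A (0.998) and ANKRD56 (0.998), which separate the lines as TGFA does. For AREG they were C8orf51 (0.972), BOK (0.970) and ATP7B (0.962), and BOK had 641, 817, 380 and 370 in BT474m1 with DMSO, lapatinib, JQ1 and both drugs. With Spearman's rho, which is often tied over 8 libraries, 0 of the 3 genes for EGF were among the 15 at a rho of 1, and C8orf51 was among the 3 at a rho of 1 for AREG. For TGFA, CCNT2 and PPP1R12A were among the 7 genes at a rho of 0.970 or above.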

How the data were processed

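Poly(A) RNA of 8 cultures was measured, 1 library per group, with groups taken from the labels. Each deposited table holds a signal for every gene, that is, RSEM read counts that the authors scaled to an upper quartile of 1000 among genes above 0. The submitters' processing notes also name hg19, Picard 1.88, SAMtools 1.2 and R 3.2.2, whereas the methods of the study name hg38, STAR and Salmon, so no gene positions of the tables are given. The treatment time is that of the labels. The methods of the study give a shorter treatment for its cell lines, and a figure legend gives the time of the labels for RNA-seq of SKBR-3, so the exposure time is not certain.

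The value of 1 read was found as the common step between values in each library, and 83.6% to 84.7% of values under 1000 reads were then whole within 0.02 of a read. The rest are fractional RSEM estimates. Depth was the sum of values over that step, 21420115 to 34112381 reads on genes. Of 64 genes of proteasome, RNA polymerase II and EIF3 subunits, 2 were at 0 in any library. The filter, a value of 10 in any library, left 14429 genes and took out 6102. Changes are differences of log2(value + 1), with a call at 2-fold. Medians over the ligands take those with more than 3 reads in either library of the comparison, a choice made after seeing the values. With 1 library per group there is no test within a line. A fit with the lines as replicates (limma 3.58.1 in R 4.3.3 on log2(value + 1), line plus treatment, variance trend, Benjamini-Hochberg adjustment over 14429 genes) was added after seeing the data. Intervals are 95% exact Clopper-Pearson intervals on the reads of 2 libraries (exact Poisson intervals for levels per kb, and a normal interval on Poisson errors for departures from the sum of the single drugs), and folds against 0 reads were computed against a floor of 3 reads. Reads copied by PCR without molecular identifiers do not count independent molecules, so both cover counting error only. Lengths are those of MANE Select transcripts in GENCODE 44.

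The members, gene lists and promoter motifs were chosen with earlier results of these data known. Named genes were all 10 ligands, the 4 receptors, EPGN, up to 4 genes per pathway list with the largest summed change with lapatinib, and 3 genes of most similar pattern per ligand with a value of 100 or more. RHBDL2 and the genes listed behind a count were named after their values were seen. Alternatives were a pseudocount of 10, scaling to equal totals or by median of ratios, a filter at 100 or none, exon-union lengths and Spearman's rho, and, added after seeing the data, calls only where the interval excludes no change. The method was tested on simulated data. The software was Python 3.11.15 with scipy 1.17.1, numpy 2.4.6, pandas 2.3.3 and, for figures, matplotlib 3.10.9.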

Additional observations from a re-analysis of the deposited data

Results flagged for a closer look

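Some ligands had log2 fold changes of opposite sign in the 2 lines, with at least 2-fold in 1 of them and reads above the floor in both. In all 4 cases the counting interval of the smaller change included no change, so opposite changes were not detected, and with 1 library per group the difference between the lines was not tested. For EGF with lapatinib the log2 fold change was 1.25 in SKBR-3 and -0.18 in BT474m1. For HBEGF with lapatinib it was -1.79 in SKBR-3 and 0.51 in BT474m1, on 5 to 22 reads per library. For HBEGF with both drugs it was -0.32 in SKBR-3 and 1.44 in BT474m1. For NRG2 with JQ1 it was -2.22 in SKBR-3 and 0.83 in BT474m1, a gene whose exons overlap one on the opposite strand.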

How the results depend on the processing

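No call changed direction under any of the alternatives that compare single libraries. With a pseudocount of 10, the ligands called were 1 for lapatinib in SKBR-3, 1 for JQ1 in SKBR-3, 0 for JQ1 in BT474m1, 0 for both drugs against DMSO in each line and 4 between the lines. Of 60 single fold changes 36 were called with the main setting, and 21 of these calls fell under 2-fold, since this pseudocount shrinks low genes by construction. With a filter at 100, which keeps only EGF, TGFA and AREG, the counts were 1 and 0 in SKBR-3 with lapatinib and JQ1, 1 with JQ1 in BT474m1, 1 with both drugs in each line, 2 and 3 for both drugs against lapatinib in SKBR-3 and BT474m1, and 3 between the lines. Over these alternatives, within and between the lines, 40 of 54 counts stayed within 1.5 times the main count, and 0 of 60 single fold changes crossed 2-fold with either other scaling. Scaling by the median of ratios changed the sign of 2 fold changes, neither of them called. Scaling moved the median of all genes by more than 0.1 in 3 comparisons: by -0.14 for JQ1 in SKBR-3 with equal totals, and by 0.11 for both drugs against lapatinib in SKBR-3 and -0.15 between the lines with the median of ratios. With exon-union lengths the most abundant ligand was the same in 7 of 8 libraries, and TGFA passed AREG in BT474m1 with lapatinib. No departure from the sum of single drugs moved beyond its interval. AREGB, a near-identical copy of AREG, is not among the genes used here, so the alternative that sums the pair gave no value. Within a line no replicate could be left out. With treatments paired by line (line as the replicate block, limma, added after seeing the data), 0 ligands were called in each of the 4 drug comparisons. TGFA, EREG and NRG3 had 3 reads or fewer in every SKBR-3 library, so for them this fit could not measure a response in both lines. NRG1 had 0 reads in all libraries, and depth also limits EREG, HBEGF, NRG2 and NRG4, with 42 reads or fewer in every library.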
